A study of Mus musculus with 15 samples.

Results

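ER-associated degradation (ERAD) genes were followed across a mouse B cell culture as the cells became plasma cells. The 10 genes were Sel1l, Syvn1, Herpud1, Derl1, Derl2, Derl3, Edem1, Edem2, Edem3 and Os9. They were found by matching Ensembl gene identifiers to these symbols, and all 10 were present among the 51912 genes of the deposited expression table. The study's title concerns calcium signalling in the differentiation and survival of IgE plasma cells, and its RNA-seq profiles allow each gene to be compared between IgE and IgG1 cells and between stages. Wild-type, untreated B cells were cultured for 6 days on 40LB feeder cells with IL-4 at 100 ng/ml. The day 6 group (D6) is the whole, unsorted culture at that point. The other 4 groups were moved off the feeders, kept for 2 further days without stimulation and sorted. They are plasma cells (PC) and cells that the labels call iGC, each taken separately for IgE and for IgG1. Each group had 3 biological replicates, and the labels do not give strain, age or sex. As D6 was unsorted and sampled earlier, time, culture condition and cell mixture cannot be told apart in any comparison with it.

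ERAD clears proteins that fail to fold in the endoplasmic reticulum (ER). Misfolded glycoproteins have their glycans trimmed, are recognised by lectins, pass through a membrane complex built on the ubiquitin ligase HRD1, and are ubiquitinated and pulled out for destruction by the proteasome in the cytosol. Plasma cells secrete antibody at a high rate and are known for a large ER and for the unfolded protein response, a signalling programme run by the sensors IRE1, ATF6 and PERK and the transcription factor XBP1, which induces many ERAD genes. Among the genes studied, Sel1l encodes the adaptor of the HRD1 complex, Syvn1 encodes HRD1 itself, and Herpud1 encodes HERP, a membrane protein that helps to assemble the complex. Derl1, Derl2 and Derl3 encode derlins, membrane proteins of the exit route. Edem1, Edem2 and Edem3 encode mannosidase-family proteins that act on glycans of misfolded proteins, and Os9 encodes a lectin that reads the trimmed glycan.

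Promoter sequences are shown for the genes in which a known ER stress element was found, since the 10 genes rose together in plasma cells but by different amounts. RefSeq promoters (GRCm38.p6, 250 bases before to 50 after the start) were matched for 9 of the 10 genes (all but Derl1), in 10 windows, and searched on both strands. For Os9 the bases that follow the start in its window were not found in a GENCODE vM21 transcript of the gene, so that window may not be its promoter. The ER stress response element ERSE was searched as CCAAT, then any 9 bases, then CCACG, and ERSE-II as ATTGG, then 1 base, then CCACG. In the sequences below, printed 5′ to 3′ on the plus strand, capitals mark the fixed bases of the element. The Herpud1 stretch is chr8:94386367-94386397, the Derl3 stretch is chr10:75893232-75893270, where the element lies on the minus strand and so reads as its reverse complement, and the Syvn1 stretch is chr19:6046522-6046560.
Herpud1: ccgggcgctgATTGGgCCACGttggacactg
Derl3: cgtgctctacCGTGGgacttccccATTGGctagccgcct
Syvn1: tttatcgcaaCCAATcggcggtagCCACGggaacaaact
The elements lie at -52 to -42 from the Herpud1 start, at -156 to -138 from the Derl3 start and at -44 to -26 from the Syvn1 start. ERSE was found in 39 of all 32851 promoters given (0.119%) and ERSE-II in 12 (0.0365%). The XBP1-type element TGACGTGG, present in 222 promoters (0.676%), and the ATF-type element TGACGTCA, present in 588 (1.79%), were found in 0 of the 10 windows. A match is a description of these letters only, and no match says only that the letters are not in these windows. The 3 genes that held one differed widely in the data that follow, with log2 rises from iGC to PC in IgE cells of 6.32 for Derl3, 3.06 for Herpud1 and 1.87 for Syvn1. For comparison, Hspa5, which encodes the ER chaperone BiP, held an ERSE in the same search. Among the other ERAD genes of a wider list, 3 of 32 with a promoter entry (Txndc11, Ube2j1 and Vcp) held any of the 4 elements, as did 857 of all 32851 promoters (2.61%).

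Deposited counts summed to 17.7 to 54.1 M per library, and all 10 genes passed the filter on low counts that left 15692 genes to test. Immunoglobulin genes took 15.3 to 21.7% of the counts in the PC libraries and 1.39 to 1.62% in the others, so groups are compared by CPM, counts set to a common library total after TMM scaling, which is meant to be insensitive to such a class. TPM, which also corrects for transcript length, is used to compare genes with each other. The sort mostly matched its markers. The summed TPM of 7 plasma cell markers was 6449 to 7773 in IgG1 PC and 10026 to 11099 in IgE PC. It was 437 to 456 in IgG1 iGC and 754 to 833 in IgE iGC. Jchain gave most of the PC sums, with means of 5484 in IgG1 PC and 8763 in IgE PC. Slamf7 did not rise by TPM in IgG1 cells (mean 122 in PC against 127 in iGC) and was highest in D6 (345). By CPM all 7 were called higher in PC than in iGC of the same isotype. Mean Ighe TPM was 91023 in IgE PC and 1443 in IgG1 PC, and mean Ighg1 TPM 1325 and 84591. The 8 B cell markers summed to 7372 to 7749 TPM in the iGC libraries, 2769 to 3279 in IgG1 PC and 1939 to 2148 in IgE PC. Fibroblast feeder markers (10 genes) summed to 139 to 187 TPM in D6, 26.4 to 40.4 in iGC, 28.9 to 61.1 in IgG1 PC and 6.97 to 10.5 in IgE PC, with Postn at 0 in every group but IgG1 PC and Lum at 0 in both IgE groups. T cell and myeloid markers (6 genes each) summed to at most 4.43 and 4.01 TPM, with Cd3e at 0 in every group but IgG1 PC and S100a8 at 0 in every group but IgG1 PC. In these bulk libraries, more RNA of a gene per cell and more cells that express it cannot be told apart. Some libraries stood apart within their group by CPM. IgG1 PC replicate 1 was the highest of its group for 9 of the 10 ERAD genes, against 39.1% of all genes tested, and its immunoglobulin share of counts, 21.7%, was above the 15.3% and 16.1% of the other two. IgE PC replicate 3 was likewise the highest of its group for 9 of the 10, against 39% of all genes. By TPM this differed, as IgE PC replicate 3 was the lowest of its group for Derl3, Edem2 and Os9. IgG1 PC replicate 1 was by TPM the lowest of its group for Sel1l and Edem3.

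All 10 ERAD genes were higher in plasma cells than in iGC cells of the same isotype, in both isotypes, where 30.5% (IgE) and 30.1% (IgG1) of all genes were called higher. All 10 were also higher in IgE than in IgG1 plasma cells, where 27.4% of all genes were, though the call for Edem2 was lost under total-count scaling, in a fit of only the compared groups and without IgG1 PC replicate 3. The rise was largest for the derlin Derl3, at about 80-fold in IgE and 72-fold in IgG1 cells, and smallest for its relative Derl2, at 2.85-fold and 1.57-fold. The Derl3 folds rest on low iGC levels (means of 4.84 CPM in IgE and 2.35 in IgG1). By mean TPM Derl3 went from 8.01 to 378 in IgE and from 4.11 to 180 in IgG1 cells. Between the plasma cells, the adaptor Sel1l and the scaffold Herpud1 differed most, at 3.43-fold and 3.29-fold, and Edem2 least, at 1.27-fold. In the iGC cells Derl3 was the 1 gene called between isotypes, a call lost in 4 of the 6 fits that left out a library. The plot of CPM in each library shows these levels.

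**Figure D1:**
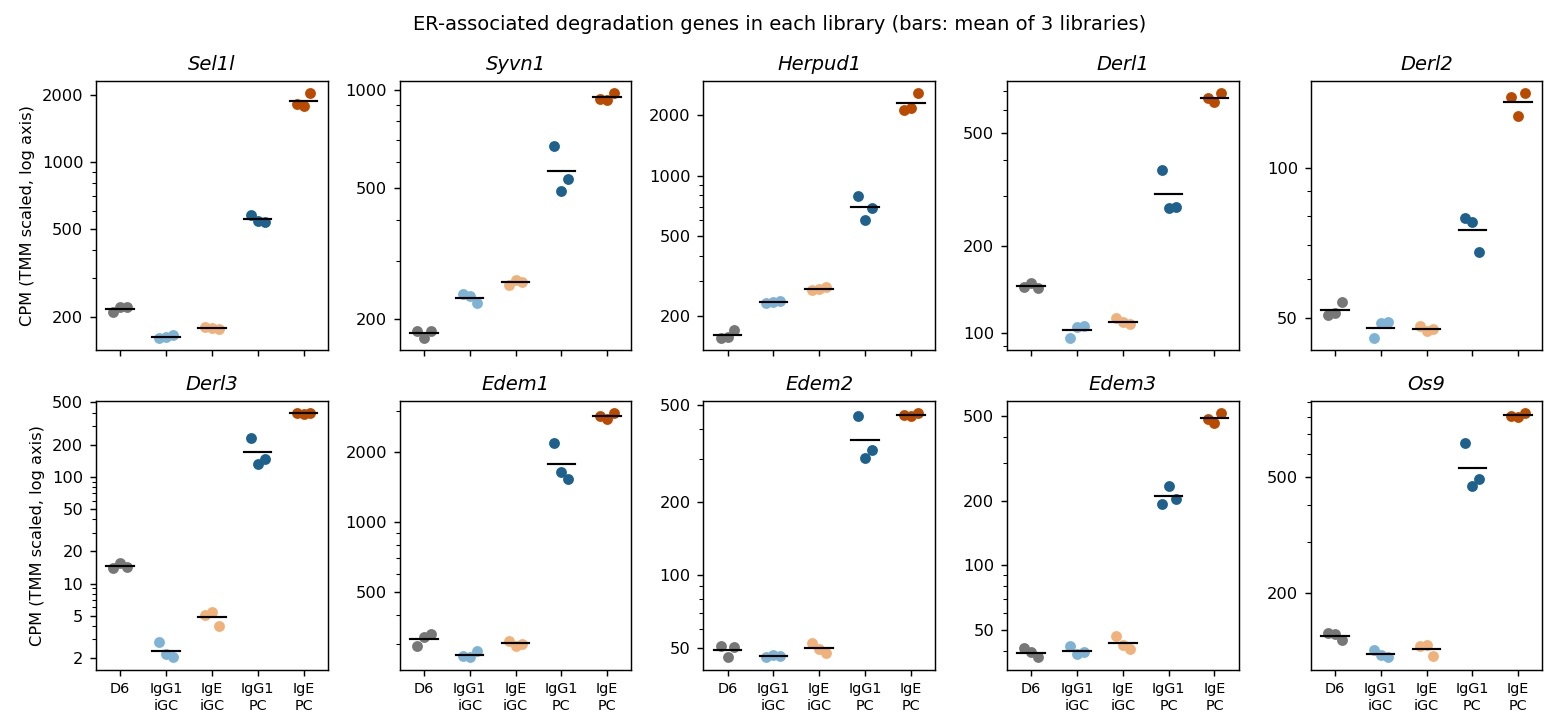
CPM (TMM scaled, log axis, a separate scale for each gene) of the 10 ERAD genes in each of the 15 libraries, with points for libraries in order of replicate number and bars for the mean of 3. In every panel the 3 IgE PC points lie above the 3 IgG1 PC points, which lie above all D6 and iGC points; for Edem2 the gap between the PC groups is narrow (450.3 against 451 CPM).

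The genes of the HRD1 complex are described first. Coordinates are those of GRCm38 in the GENCODE vM21 annotation, where all 10 are protein-coding genes. Sel1l, the adaptor (ENSMUSG00000020964, chr12:91806043-91849157, minus strand), was at 160.4, 162 and 165 CPM in the IgG1 iGC libraries and at 179.9, 178 and 177 in IgE iGC. In plasma cells it reached 575, 544 and 536 CPM in IgG1 and 1831, 1799 and 2045 in IgE, while D6 had 211, 221 and 221. No 2 groups overlapped, and the IgE PC libraries stood far above the rest. The log2 rise from iGC to PC was 3.41 (SE 0.06, edgeR adjusted p = 2.8e-15) in IgE and 1.76 (SE 0.06, edgeR adjusted p = 1.1e-12) in IgG1 cells. The difference between these rises, tested as an interaction, was 1.64 on the log2 scale (approximate 95% interval 1.49 to 1.80, edgeR adjusted p = 6.0e-09).

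Syvn1 (ENSMUSG00000024807, chr19:6046576-6053712, plus strand), the ligase that SEL1L stabilises, moved less. Its span overlaps Mir6988 on the same strand and Mrpl49 on the opposite one. Syvn1 was at 238, 235 and 224 CPM in IgG1 iGC, at 255, 262 and 259.6 in IgE iGC, at 673, 492 and 533 in IgG1 PC and at 933, 932 and 974 in IgE PC, with 185, 175 and 183 in D6. The groups again did not overlap, and D6 was the lowest. Its log2 rise was 1.87 (SE 0.09) in IgE and 1.29 (SE 0.09) in IgG1 cells, and the interaction was 0.59 (approximate 95% interval 0.35 to 0.82, edgeR adjusted p = 0.0012). As both products work in 1 complex, the ratio of their TPM within a library was taken: it was 0.97 ± 0.04 in D6, 0.53 ± 0.03 in IgG1 iGC, 0.56 ± 0.04 in IgE iGC, 0.75 ± 0.13 in IgG1 PC and 1.50 ± 0.04 in IgE PC (Sel1l over Syvn1, SD, n = 3 each). Sel1l transcripts thus outnumbered Syvn1 transcripts in all 3 IgE PC libraries (ratio 1.46 to 1.55), and the ratio was under 1 in all IgG1 PC and iGC libraries. The ratio was not tested.

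Herpud1 (ENSMUSG00000031770, chr8:94386438-94395377, plus strand, overlapped by Gm15890 on the opposite strand), known for its strong response to ER stress, was at 232, 236 and 238 CPM in IgG1 iGC and at 271, 274 and 279.7 in IgE iGC. The IgG1 PC libraries had 789, 604 and 695 CPM, the IgE PC libraries 2137, 2165 and 2576, and D6 156, 157 and 170.0. As with Syvn1, the order was D6, IgG1 iGC, IgE iGC, IgG1 PC and IgE PC with no overlap between neighbours. Its log2 rise was 3.06 (SE 0.09) in IgE and 1.57 (SE 0.09) in IgG1 cells, with an interaction of 1.50 (approximate 95% interval 1.25 to 1.74, edgeR adjusted p = 4.0e-07). By TPM, Herpud1 ranked first of the 10 genes in both iGC groups (228 ± 7.27 in IgG1 and 265 ± 31.0 in IgE, SD, n = 3), second in IgG1 PC (429.8 ± 22.4) and level with Edem1 in IgE PC (1232 ± 112 against 1195 ± 24.4).

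The derlins form a family of 3 whose members behaved unlike each other. Derl3 (ENSMUSG00000009092, chr10:75893413-75895941, plus strand) was at 2.84, 2.17 and 2.03 CPM in IgG1 iGC and at 5.09, 5.44 and 3.98 in IgE iGC, and its D6 level was 14.1, 15.6 and 14.3. It reached 229, 132 and 148 CPM in IgG1 PC and 399.6, 388 and 395 in IgE PC. All 5 groups were apart, with the IgG1 PC libraries the most spread (CV 30.7%). Its log2 rise was 6.32 (SE 0.21, edgeR adjusted p = 2.3e-12) in IgE and 6.16 (SE 0.21, edgeR adjusted p = 1.0e-11) in IgG1 cells, which placed it 26th and 38th among the rises of all 15692 genes. Between these rises the difference was 0.16 (approximate 95% interval -0.41 to 0.72, edgeR adjusted p = 0.70), an interval that also holds differences as large as that of Syvn1.

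Derl1 (ENSMUSG00000022365, chr15:57869502-57892448, minus strand) was at 95.7, 105 and 106 CPM in IgG1 iGC, at 112, 109 and 107 in IgE iGC, at 371, 272 and 275 in IgG1 PC and at 659, 638 and 686 in IgE PC. D6, with 145, 149 and 143, lay between the iGC and PC groups. The log2 rise was 2.60 (SE 0.10) in IgE and 1.58 (SE 0.09) in IgG1 cells. Its deposited counts held fractions in 15 of 15 libraries, so some of its reads were shared by the authors' counting with another gene, and its values are less certain.

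Derl2 (ENSMUSG00000018442, chr11:71007164-71019841, minus strand, overlapped by Mis12 on the opposite strand), the derlin with the smallest rise, was at 45.6, 48.9 and 49.1 CPM in IgG1 iGC and at 48.3, 47.1 and 47.5 in IgE iGC. It was at 79.4, 77.8 and 68.0 CPM in IgG1 PC, at 139, 127 and 141 in IgE PC and at 50.8, 51.1 and 53.9 in D6. The iGC groups overlapped, and the PC groups did not. Its log2 rise was 1.51 (SE 0.06) in IgE and 0.65 (SE 0.06) in IgG1 cells. In IgG1 cells the Derl2 rise was thus less than 2-fold. In the edgeR fit of all libraries it was the only one of the 20 rises from iGC to PC of which this holds. In alternative analyses the IgG1 rises of Syvn1, Herpud1 and Derl1 also fell below 2-fold (lowest log2 values 0.71, 0.91 and 0.95).

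The make-up of the derlin family differed between stages. Derl3 supplied 4.17% ± 0.92 of derlin TPM in IgG1 iGC and 7.63% ± 0.22 in IgE iGC, but 53.2% ± 3.29 in IgG1 PC and 56.9% ± 0.55 in IgE PC (SD, n = 3 each), with 14.6% ± 0.76 in D6. Derl1 went from 53.1% in both iGC groups to 30.6% in IgG1 PC and 30.4% in IgE PC. Derl2 went from 42.7% in IgG1 iGC and 39.3% in IgE iGC to 16.2% and 12.7%. Shares within a family do not depend on the immunoglobulin content of a library.

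**Figure D2:**
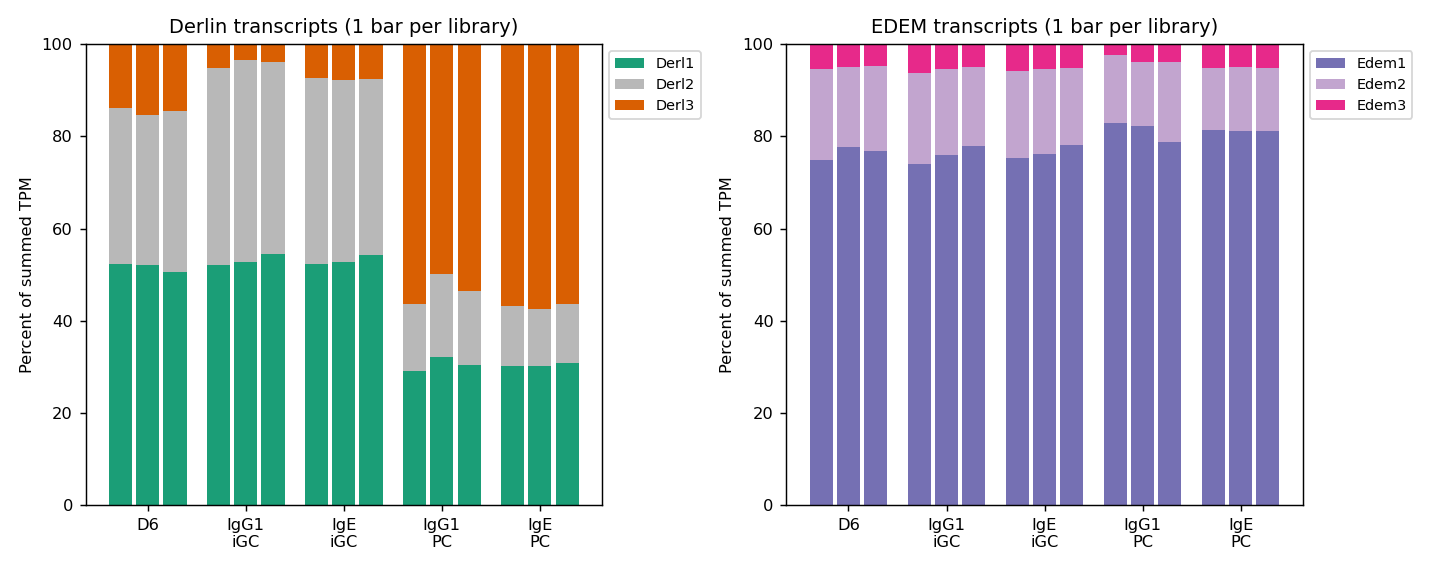
Share of summed TPM (percent, y axis) given by each of the 3 derlins, left, and the 3 EDEM genes, right, with 1 stacked bar per library grouped by sample group. Derl3 takes 49.8 to 57.5% of derlin TPM in the 6 PC libraries and 3.46 to 15.4% in the other 9, while Edem1 takes 73.9 to 82.9% of EDEM TPM in all 15 libraries.

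The EDEM genes, which act at the glycan-trimming step, rose by more similar amounts. Edem1 (ENSMUSG00000030104, chr6:108828641-108859356, plus strand) was at 266, 263 and 281 CPM in IgG1 iGC, at 309.8, 296 and 302 in IgE iGC, at 2181, 1644 and 1537 in IgG1 PC and at 2875, 2773 and 2954 in IgE PC. D6, with 294, 323 and 332, overlapped IgE iGC. The log2 rise was 3.25 (SE 0.11) in IgE and 2.73 (SE 0.10) in IgG1 cells, and the interaction was 0.52 (approximate 95% interval 0.25 to 0.79, edgeR adjusted p = 0.0073). With TPM in place of counts the Edem1 interaction was 0.26 and no longer passed (limma adjusted p = 0.206 with a pseudocount of 1).

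Edem2 (ENSMUSG00000038312, chr2:155701677-155729475, minus strand) was at 45.7, 46.7 and 46.4 CPM in IgG1 iGC, at 52.5, 49.6 and 47.6 in IgE iGC and at 51.0, 46.1 and 50.6 in D6. In plasma cells it was at 450.3, 304 and 327 CPM in IgG1 and at 455, 451 and 466 in IgE. The first IgG1 PC library came within 1 CPM of the lowest IgE PC library, and the other 2 lay well below. Its log2 rises were 3.19 (SE 0.12) in IgE and 2.96 (SE 0.11) in IgG1 cells, and their difference, 0.23 (approximate 95% interval -0.06 to 0.53), did not pass (edgeR adjusted p = 0.24). Without IgG1 PC replicate 1 the interaction was 0.42 for Edem2 (edgeR adjusted p = 2.0e-04) and 0.43 for Derl3 (edgeR adjusted p = 0.033), so that both passed.

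Edem3 (ENSMUSG00000043019, chr1:151755371-151822051, plus strand), the least abundant of the family by TPM, was at 41.9, 38.5 and 39.6 CPM in IgG1 iGC and at 46.6, 42.5 and 40.6 in IgE iGC. It was at 194, 236 and 205 CPM in IgG1 PC, at 486, 463 and 517 in IgE PC and at 41.0, 39.4 and 37.1 in D6. D6 and the iGC groups overlapped, whereas the PC groups stood apart. Edem3 was the 1 gene for which IgG1 PC replicate 1 was the lowest of its group by CPM. The log2 rise was 3.50 (SE 0.08) in IgE and 2.40 (SE 0.08) in IgG1 cells, with an interaction of 1.09 (approximate 95% interval 0.88 to 1.30, edgeR adjusted p = 2.1e-06). Edem1 remained the main EDEM transcript throughout, at 75.9% ± 1.95 of EDEM TPM in IgG1 iGC, 76.5% ± 1.50 in IgE iGC, 81.3% ± 2.21 in IgG1 PC and 81.2% ± 0.14 in IgE PC (SD, n = 3 each).

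Os9 (ENSMUSG00000040462, chr10:127095650-127121131, minus strand), the lectin that passes trimmed glycoproteins to SEL1L, was at 127, 122 and 120.1 CPM in IgG1 iGC, at 132, 133 and 121 in IgE iGC, at 656, 465 and 490.0 in IgG1 PC and at 808, 802 and 829.7 in IgE PC, with 145, 144 and 138 in D6. The iGC groups overlapped and both lay below D6. The log2 rise was 2.66 (SE 0.10) in IgE and 2.12 (SE 0.10) in IgG1 cells, and the interaction was 0.54 (approximate 95% interval 0.27 to 0.80, edgeR adjusted p = 0.0049).

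Counted over the 10 genes, the step from iGC to PC raised all 10 in IgE cells, where 30.5% of all genes tested were called higher, and all 10 in IgG1 cells, where 30.1% were. The median log2 rise was 3.13 in IgE and 1.94 in IgG1 cells, beside -0.08 and 0.01 over all genes. A rise of at least 2-fold was seen for 10 genes in IgE and 9 in IgG1 cells, against 13.7% and 14.1% of all genes. The 2-fold count in IgG1 cells depended on the analysis. Over the alternatives the lowest log2 rises there were 0.71 for Syvn1, 0.91 for Herpud1 and 0.95 for Derl1, each under 2-fold. In IgE cells the lowest was 1.01, for Derl2. All 10 had PC libraries above all iGC libraries in both isotypes, which 33.7% and 30.1% of all genes did. Every one of the 14 alternative analyses of each of these comparisons gave the same calls. The summed CPM of the 10 genes was 1262 ± 7.62 in IgG1 iGC, 1398 ± 12.7 in IgE iGC, 5261 ± 812 in IgG1 PC and 10948 ± 559 in IgE PC (SD, n = 3 each).

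**Figure D3:**
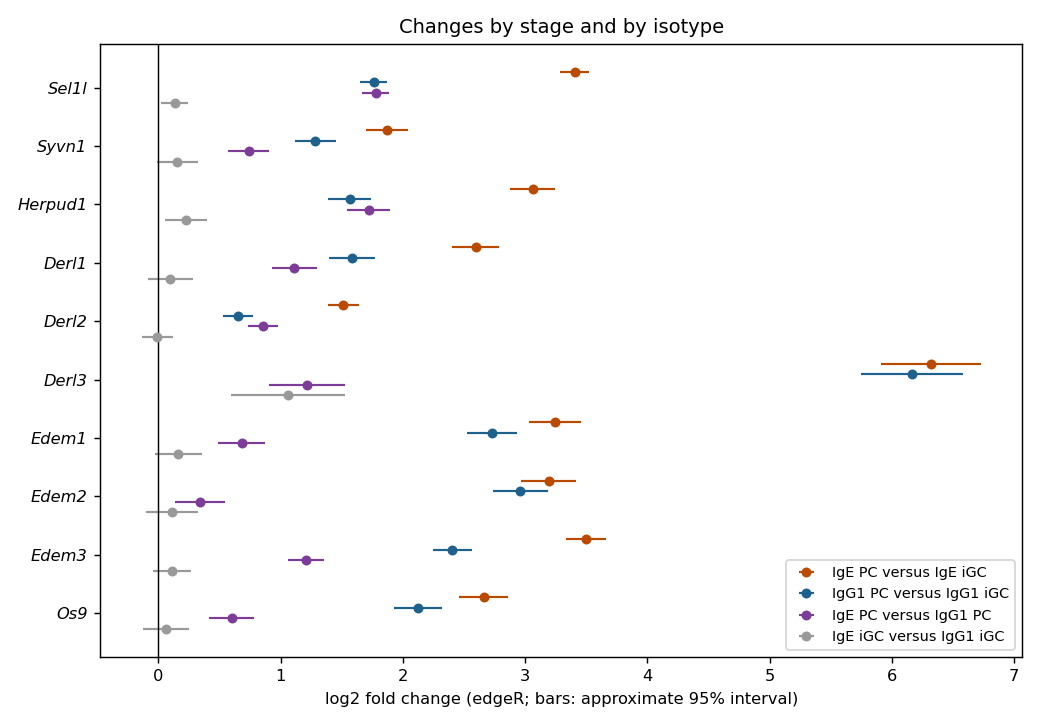
Log2 fold changes from edgeR (x axis) of the 10 ERAD genes in 4 comparisons, with bars for the approximate 95% interval. The stage comparisons in IgE and IgG1 cells lie right of 0 for all 10 genes (1.51 to 6.32 and 0.65 to 6.16), the PC isotype comparison lies between 0.34 and 1.78, and the iGC isotype intervals include or come close to 0 except for Derl3.

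Between plasma cells of the 2 isotypes, all 10 genes were called higher in IgE PC, where 27.4% of all genes were called higher. After Sel1l (log2 difference 1.78, SE 0.06, edgeR adjusted p = 2.3e-11) and Herpud1 (1.72, SE 0.09, edgeR adjusted p = 8.5e-10) came Derl3 (1.22, SE 0.16), Edem3 (1.21, SE 0.08) and Derl1 (1.11, SE 0.09). These 5 were at least 2-fold higher, as were 3.83% of all genes, and Sel1l and Herpud1 ranked 118th and 126th of the 15692 genes. Over the 14 alternative analyses the lowest values were 1.53 for Sel1l and 1.47 for Herpud1. For Derl3, Edem3 and Derl1 they were 0.98, 0.95 and 0.87, under 2-fold. In the fit of all libraries Derl2 (0.86, SE 0.06), Syvn1 (0.74, SE 0.09), Edem1 (0.68, SE 0.10) and Os9 (0.60, SE 0.10) followed. Edem2 was last, at 0.34 (SE 0.11, edgeR adjusted p = 0.011), and its call was lost under total-count scaling (0.10, edgeR adjusted p = 0.306), in a fit of only the compared groups (0.34, edgeR adjusted p = 0.0684) and without IgG1 PC replicate 3 (0.28, edgeR adjusted p = 0.0553). The groups did not overlap for all 10 genes, a pattern shown in this direction by 28% of all genes. The 10-gene median was 0.98, beside -0.05 over all genes.

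Cell type markers moved with this comparison. Of 7 plasma cell markers, 5 were higher in IgE PC (Sdc1 by 0.94, Irf4 by 0.74, Slamf7 by 0.75, Jchain by 0.82 and Tnfrsf17 by 1.07 on the log2 scale), while Prdm1 (0.19) and Xbp1 (0.01) were not called. Of 8 B cell markers, 4 were lower in IgE PC, among them Cd79a (-0.81) and Pax5 (-1.16), and 0 were higher. Of the 8 feeder markers past the count filter, 7 were lower in IgE PC. The part of these differences in the ERAD results was not tested.

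The test of isotype by stage asked whether the rise from iGC to PC differed between isotypes. It called 8 of the 10 genes, all with a larger rise in IgE cells, where 19.8% of all genes were called in that direction and 23.1% in the other. In descending order the values were Sel1l 1.64, Herpud1 1.50, Edem3 1.09, Derl1 1.01 (edgeR adjusted p = 2.6e-05), Derl2 0.86 (edgeR adjusted p = 2.7e-06), Syvn1 0.59, Os9 0.54 and Edem1 0.52. Edem2 and Derl3 were the 2 that did not pass. Edem1 lost its call on the TPM scale (0.26, limma adjusted p = 0.206). The first 4 in that order exceeded a 2-fold difference, as did 3.13% of all genes. Over the alternative analyses the lowest values of Edem3 and Derl1 were 0.85 and 0.79, under 2-fold. Those of Sel1l and Herpud1 were 1.41 and 1.26. The isotypes are compared here through the same PC and iGC libraries as above, so this is a further reading of those samples and not a second experiment. Cell type markers moved in this test too: 7 of the 8 tested feeder markers (median -2.64), 5 of 8 B cell markers (median -0.61) and 3 of 3 tested myeloid markers (median -2.11) were lower, and of 7 plasma cell markers 2 were higher and 1 lower (median -0.39). Their part in the ERAD values was not tested.

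**Figure D4:**
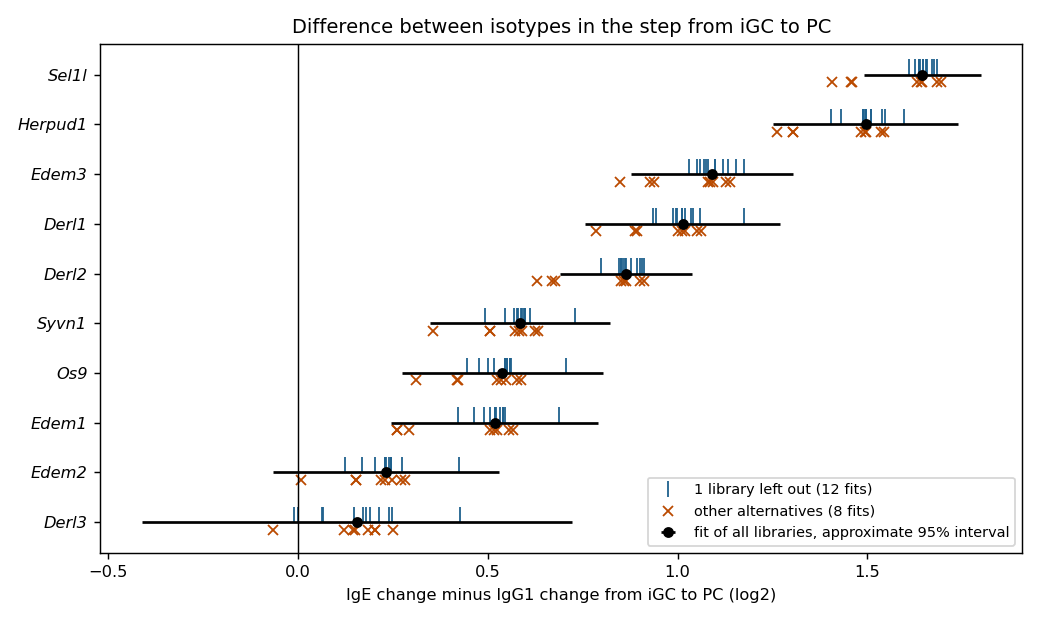
Difference between the IgE and the IgG1 change from iGC to PC (log2, x axis) for the 10 genes, with black points and bars for the fit of all libraries and its approximate 95% interval, ticks for fits with 1 library left out and crosses for the other alternatives. Sel1l and Herpud1 lie farthest from 0 (1.64 and 1.50), and Derl3 (0.16) is the 1 gene whose alternatives reach both sides of 0.

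In iGC cells 1 of the 10 genes was called between isotypes, where 1.99% of all genes were called higher in IgE and 1.88% lower. It was Derl3, at 1.06 on the log2 scale (SE 0.24, edgeR adjusted p = 0.021), and its call was lost without the filter on low counts (edgeR adjusted p = 0.0890) and in 4 of the 6 fits that left out a library. For the other 9 the differences ran from -0.01 (Derl2) to 0.22 (Herpud1, approximate 95% interval 0.05 to 0.40, edgeR adjusted p = 0.22). All 3 IgE libraries were nevertheless above all 3 IgG1 libraries for 7 of the 10 genes (all but Derl2, Edem3 and Os9), as they were for 14.4% of all genes. A fit of only the 2 iGC groups called 5 genes, adding Sel1l, Syvn1, Herpud1 and Edem1. That fit called 5.48% of its 13936 genes higher in IgE and 5.3% lower. Cell type markers also moved between the iGC groups in the fit of all groups. Of 7 plasma cell markers 3 were higher in IgE iGC and 0 lower (median 0.59). Of the 8 B cell markers and the 8 tested feeder markers 0 were called, and 1 of 3 tested myeloid markers was lower. Their part in the ERAD values was not tested.

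In the filtered, TMM-scaled edgeR fit of all 15 libraries, ERAD genes were called no more often between D6 and iGC than genes in general. Of the 10, Syvn1 and Herpud1 were higher in iGC of both isotypes, where 32.8% (IgE) and 32.4% (IgG1) of all genes were called higher, and Sel1l, Derl1 and Derl3 were lower in both, where 36.3% and 36% were called lower. Herpud1 rose by 0.77 on the log2 scale in IgE iGC and 0.55 in IgG1 iGC, and Syvn1 by 0.52 and 0.36. Sel1l fell by 0.29 and 0.42, Derl1 fell by 0.41 and 0.51, and Derl3 fell by 1.57 and 2.63. The adaptor Sel1l and the ligase Syvn1 thus differed in sign. Derl2, Edem1, Edem2, Edem3 and Os9 were not called, with differences between -0.23 and 0.15. With total-count scaling or on the TPM scale the IgG1 comparison called 8 of the 10 genes in place of 5. Of all genes 29.9% were called higher and 37.7% lower there under total-count scaling. With limma on log2(TPM + 1) these shares were 24.8% and 39%. In the IgE comparison Derl2 and Os9 were called lower under total-count scaling (-0.19, edgeR adjusted p = 0.0097, and -0.21, edgeR adjusted p = 0.022) and on the TPM scale. Edem3 was called higher there with immunoglobulin genes removed (0.20, edgeR adjusted p = 0.030) and in a fit of only the compared groups (0.20, edgeR adjusted p = 0.0096). Both iGC groups were set against the same D6 libraries, so their shared direction is not independent. The median over the 10 genes was -0.09 in IgE and -0.16 in IgG1 cells, beside -0.04 in both over all genes.

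Relative to D6, all 10 genes were higher in IgE PC, where 36.9% of all genes were called higher, and in IgG1 PC, where 35.9% were. The smallest difference was again Derl2, at 1.39 (SE 0.06) in IgE PC and 0.53 (SE 0.06) in IgG1 PC, the second of which was 0.02 on the TPM scale and did not pass there (limma adjusted p = 0.837). Derl3 rose by 4.75 (SE 0.18) and 3.53 (SE 0.18), and Herpud1 by 3.83 (SE 0.10) and 2.11 (SE 0.09). Sel1l rose by 3.12 (SE 0.06) in IgE PC but by 1.34 (SE 0.06) in IgG1 PC.

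The order of the genes by TPM also differed between groups. In D6 the most abundant were Edem1 (170.2 ± 10.3) and Herpud1 (159 ± 6.16), whose ranges overlapped, and the least abundant was Edem3 (11.1 ± 0.28). In both iGC groups Derl3 was last, at 4.11 ± 0.66 TPM in IgG1 and 8.01 ± 0.37 in IgE. In IgG1 PC Edem1 led at 922 ± 140.1 TPM, with Os9, Syvn1, Derl3, Edem2 and Sel1l forming a run of overlapping neighbours from 229.5 down to 158 TPM. In IgE PC, Sel1l was the third at 491 ± 16.1 TPM, ahead of Derl3 at 378 ± 9.40 and Syvn1 at 327 ± 1.80 with no overlap (SD, n = 3 throughout). In IgG1 PC Sel1l had been the seventh.

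The genes nearest in pattern to each ERAD gene were sought among 12603 other genes by the root mean square difference of centred log2 CPM over the 15 libraries. Syvn1 was closest to Rnf5 (0.06), an ER membrane ubiquitin ligase, Os9 to Gmppa (0.06), a regulator of GDP-mannose synthesis, and Derl2 to Mia3 (0.05), an ER export factor for large cargo. Edem1 was closest to Slc33a1 (0.14), the acetyl-CoA transporter of the ER, and Edem3 to Pdia4 (0.17), an ER protein disulfide isomerase, with Slc33a1 next (0.18). Sel1l was closest to Gpr155 (0.13), Derl1 to Tbl2 (0.11), Edem2 to Atoh8 (0.22) and Herpud1 to Evi2a (0.23). The genes closest to Derl3 lay farther away, at Tigit (0.47) and Sdc1 (0.48), the plasma cell surface marker. Within the 10 genes, Edem1 and Edem2 were the closest pair (0.15) and Derl2 and Derl3 the farthest (2.35).

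A list of 42 further ERAD genes, all of which were tested, mostly moved in the same direction, with smaller medians. From iGC to PC, 34 rose and 3 fell in IgE cells (median 0.81), and 27 rose and 5 fell in IgG1 cells (median 0.27). Of all genes 30.5% rose and 33.6% fell in IgE cells, and 30.1% and 29% in IgG1 cells. These splits depended on the scale. Under total-count scaling 27 were higher and 10 lower in IgE PC, and 18 higher and 13 lower in IgG1 PC. On the TPM scale 17 were higher and 13 lower in IgE PC, and 11 higher and 22 lower in IgG1 PC (median -0.30). All genes shifted as well. Under total-count scaling 16.9% of all genes were higher and 55.7% lower in IgE PC, and 20.6% and 43.6% in IgG1 PC. On the TPM scale 11.7% of all genes were higher and 61.1% lower in IgE PC, and 10.5% and 58.9% in IgG1 PC. The largest rises were Selenos, part of the complex that recruits the p97 ATPase (log2 rise 3.09 in IgE and 2.45 in IgG1), Txndc11, an EDEM-linked thioredoxin-domain protein (2.69 and 2.97), and Selenok, a partner of Selenos (2.54 and 2.08). In IgG1 cells Yod1 (-0.49) and Erlin1 (-0.30) fell. Tmub1 (-0.22) passed too, but its call was lost with no filter on low counts (edgeR adjusted p = 0.0756), with the replicate block (edgeR adjusted p = 0.0563), in a fit of only the compared groups (edgeR adjusted p = 0.141) and in 5 of the 6 fits that left out a library (all but IgG1 PC replicate 1). Between plasma cells 34 of the 42 were higher in IgE and 1 was lower (median 0.53), with 24 higher and 6 lower under total-count scaling. Of all genes 27.4% were higher and 30.7% lower, and 14.5% and 46.3% under that scaling. The largest differences were the intramembrane protease Rhbdd1 (1.25), the ligase Marchf6 (1.10) and the HRD1 partner Fam8a1 (1.09). The isotype-by-stage test called 28 with a larger rise in IgE and 1 in the other direction (median 0.46), and under total-count scaling 20 and 5, beside 19.8% and 23.1% of all genes and 9.83% and 35.7% under that scaling. Between iGC isotypes 1 of 42 was called, Txndc11 (0.53, edgeR adjusted p = 0.0036).

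**Figure D5:**
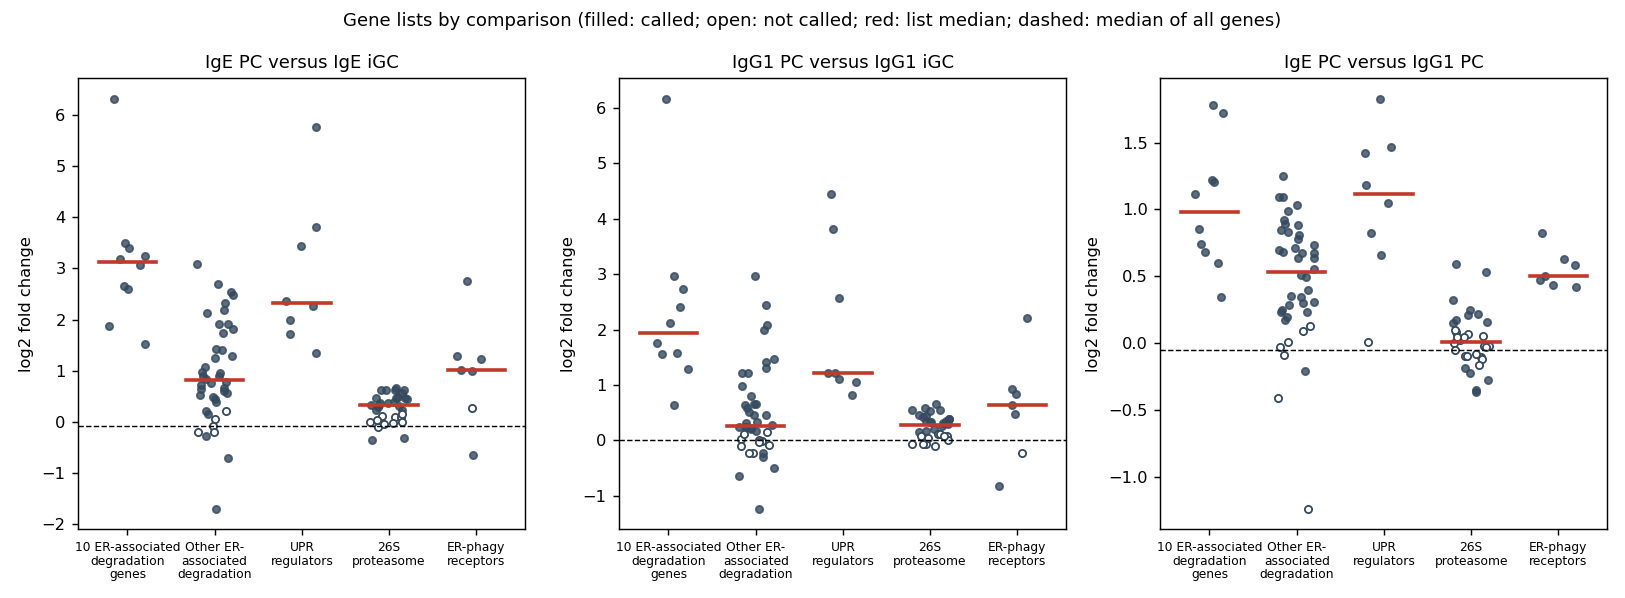
Log2 fold changes (y axis) of the 10 ERAD genes and 4 other gene lists in 3 comparisons; filled points passed the test, open points did not, red bars are list medians and dashed lines the median of all genes. The median of the 10 genes (3.13, 1.94 and 0.98) lies above that of the 42 other ERAD genes (0.81, 0.27 and 0.53) and of the 32 proteasome genes (0.32, 0.28 and 0.01). That of the 8 unfolded protein response genes (2.32, 1.22 and 1.12) lies below it from iGC to PC and above it between plasma cells, and the ER-phagy receptors lie below it (1.01, 0.64 and 0.50).

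The unfolded protein response genes that act upstream of ERAD moved strongly. All 8 on the list rose from iGC to PC in both isotypes (median 2.32 in IgE and 1.22 in IgG1), and 7 of 8 were higher in IgE than in IgG1 PC (median 1.12), where Xbp1 became the 1 lower gene under total-count scaling. Of all genes 30.5% (IgE) and 30.1% (IgG1) rose, and 27.4% were higher in IgE PC. Ern1, which encodes IRE1, was at 11.1, 11.1 and 9.97 CPM in IgG1 iGC, 15.4, 14.7 and 15.4 in IgE iGC, 227, 231 and 246 in IgG1 PC and 847, 808 and 843 in IgE PC. Its difference between plasma cells was 1.83 (SE 0.07, edgeR adjusted p = 1.3e-10). Atf6 differed by 1.19 (SE 0.05) and Hspa5 by 1.42 (SE 0.09). Xbp1 was the 1 gene of the list not called between plasma cells. It was at 2397, 1664 and 1607 CPM in IgG1 PC and 1847, 1895 and 1974 in IgE PC, groups that overlapped (log2 difference 0.01, edgeR adjusted p = 0.94), although it rose by 3.82 in IgG1 and 3.43 in IgE cells. The sign of the Xbp1 difference turned under total-count scaling (-0.23) and without IgG1 PC replicate 2 or 3 (-0.07 and -0.09). Without IgG1 PC replicate 1, Xbp1 was called higher in IgE PC (0.22, edgeR adjusted p = 0.0079). Gene-level counts do not separate the spliced form of Xbp1 mRNA, which IRE1 makes, from the unspliced form.

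The 26S proteasome degrades what ERAD delivers. Of its 32 subunit genes 9 were higher in IgE PC and 5 lower (median 0.01), against 1 and 22 under total-count scaling and 3 and 13 on the TPM scale. Of all genes 27.4% were higher and 30.7% lower, against 14.5% and 46.3% under total-count scaling and 14.2% and 30.5% on the TPM scale. Psmc6 (0.59) and Psmc5 (-0.37) were the extremes of those named. From iGC to PC 20 rose and 2 fell in IgE cells and 20 rose and 0 fell in IgG1 cells (medians 0.32 and 0.28), but this direction reversed on the TPM scale, where 0 rose and 27 and 28 fell. Under total-count scaling 4 rose and 17 fell in IgE cells, and 10 rose and 10 fell in IgG1 cells. Of all genes 30.5% rose and 33.6% fell in IgE cells, and 30.1% rose and 29% fell in IgG1 cells. On the TPM scale 11.7% of all genes rose and 61.1% fell in IgE cells, and 10.5% and 58.9% in IgG1 cells. Under total-count scaling 16.9% of all genes rose and 55.7% fell in IgE cells, and 20.6% and 43.6% in IgG1 cells. From D6 to iGC 26 fell in IgE and 28 in IgG1 cells, with 0 rising, where 36.3% and 36% of all genes fell. Receptors of ER-phagy, the autophagy of ER membrane, gave 7 of 7 higher in IgE PC (median 0.50), and 4 of 7 under total-count scaling, where 27.4% and 14.5% of all genes were higher. Ccpg1 led that list with log2 rises of 2.75 in IgE and 2.21 in IgG1 cells, while Retreg1 fell by 0.66 and 0.82.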

How the data were processed

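Libraries of polyA RNA (KAPA mRNA HyperPrep) gave strand-specific single reads of 76 bp, per the labels' protocols. Cutadapt 1.9.1, STAR 2.5.2a, RSEM 1.3.0, DESeq2 1.12.3 and the build GRCm38 are named in the submitters' processing notes; the annotation, the strand setting and filters are not given in the sources used here. The authors deposited 1 table of RSEM expected counts and TPM values per gene and library, per the file headers. The TPM values deposited by the authors are scaled for transcript length and library total, so the immunoglobulin share, 33.4 to 42.5% of TPM in PC libraries, lowers all other genes there. Symbols were paired with 51633 of the 51912 identifiers, and 0 columns were left unmapped.

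Groups and replicate numbers came from the sample titles. Expected counts were rounded, filtered with filterByExpr (minimum count 10, minimum total 15) and scaled by TMM, and edgeR 4.0.16 in R 4.3.3 (glmQLFit, robust, glmQLFTest) fitted a group mean for each of the 5 groups over all 15 libraries, leaving 10 residual degrees of freedom. A gene was called at an adjusted p under 0.05 (Benjamini-Hochberg over 15692 genes); every adjusted p named edgeR is from this two-sided test. The SE is the fold change divided by the root of F, and 95% intervals are 1.96 SE, both approximate. In data simulated for IgE PC versus IgG1 PC (15156 genes), 72 to 92% of genes changed by 1 or 2 log2 units were called and 0.0267% of unchanged ones. The simulation changed 48 to 50 genes per size and direction, in IgE PC only, and left 14960 unchanged. The real comparison called 58.1% of all genes, so these rates need not hold for it. Alternatives were total-count scaling, removal of immunoglobulin genes, no filter on low counts, fits of only the compared groups, a replicate block, DESeq2 1.42.0, limma 3.58.1 on log2(TPM + 1) or log2(TPM + 0.1), and leaving out each library. The lowest levels among the 10 genes were those of Derl3 in iGC cells. The 10 genes and all lists were chosen with earlier results of these data known, so no list was tested as a set. All 10 genes are named, and of the other lists up to 3 called genes per direction with the largest change that reached a mean of 10 CPM and whose groups did not overlap, plus Xbp1, Ern1, Atf6 and Hspa5; some list genes are counted but not reported here by name. Genes of like pattern are the 2 nearest in log2 CPM (prior count 2), leaving out immunoglobulin segments and predicted genes.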

Additional observations from a re-analysis of the deposited data

Results flagged for a closer look

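The rise from iGC to PC cells differed between IgE and IgG1 cells by the interaction test (edgeR adjusted p under 0.05) for these genes, given as the IgE minus the IgG1 change on the log2 scale. Among the 10 ERAD genes the values were 1.645 for Sel1l, 1.496 for Herpud1, 1.091 for Edem3, 1.013 for Derl1, 0.8641 for Derl2, 0.585 for Syvn1, 0.5382 for Os9 and 0.5187 for Edem1. Among the other genes named, the unfolded protein response genes gave 1.329 for Ern1, 1.246 for Hspa5 and 1.054 for Atf6. Xbp1, also named from that list, had the opposite sign and was not called (-0.39, edgeR adjusted p = 0.075). Total-count scaling made it a call for a smaller rise in IgE (-0.61, edgeR adjusted p = 0.0019). So did limma on log2(TPM + 1) (-0.48, limma adjusted p = 0.0017) and leaving out IgG1 PC replicate 2 or 3 (-0.47 and -0.49). Further ERAD genes gave 1.23 for Rhbdd1, 1.114 for Fam8a1 and 1.074 for Marchf6. ER-phagy receptors gave 0.5765 for Sec62, 0.5421 for Rtn3 and 0.5388 for Ccpg1. Proteasome subunits went both ways, with 0.5764 for Psma3, 0.5591 for Psmc6 and 0.2946 for Psma5 against -0.3359 for Psmc4, -0.3315 for Psmc5 and -0.2956 for Psmd14. Of these, Psma5 (0.063, edgeR adjusted p = 0.549) and Psma3 (0.3441, edgeR adjusted p = 0.121) lost their calls under total-count scaling. Both also lost them on the TPM scale and without IgG1 iGC replicate 3, Psma5 without IgE iGC replicate 2 and Psma3 with no filter on low counts. Psmd14 lost its call on the TPM scale (-0.1619, limma adjusted p = 0.407). Among the 10 ERAD genes Edem1 lost its call there too (0.2606, limma adjusted p = 0.206). The causes of these differences were not tested.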

How the results depend on the processing

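Of 1320 recomputed values for the 10 genes, 1264 kept their direction and their side of the threshold. Total-count scaling moved the median of all genes, from -0.05 to -0.30 for IgE PC versus IgG1 PC and from -0.08 to -0.55 for IgE PC versus IgE iGC on the log2 scale, and lowered the PC values accordingly. Of the genes called, the percentage higher in IgE PC than in IgG1 PC was 47.2, against 23.8 under total-count scaling and 31.7 with limma on log2(TPM + 1). From iGC to PC it was 47.6 in IgE and 50.9 in IgG1 cells, against 23.3 and 32.0 under total-count scaling, and for the interaction 46.1 against 21.6. Between iGC isotypes, 607 genes were called, against 1503 in a fit of only the compared groups, 937 with DESeq2, 340 with limma on log2(TPM + 0.1) and 323 to 403 with 1 library left out. Of the 10 genes, 1 was called there, against 0 with no filter on low counts, 5 in a fit of only the compared groups and 0 to 1 with 1 library left out. The interaction called 6733 genes, and 4345 with limma on log2(TPM + 1). For IgG1 iGC versus D6, 5 of the 10 genes were called, and 8 under total-count scaling and under both limma analyses. Of all genes 32.4% were called higher and 36% lower there, against 29.9% and 37.7% under total-count scaling. With limma the shares were 24.8% and 39% for a pseudocount of 1, and 24.3% and 38.1% for 0.1.

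These values changed sign; the cause was not tested. Values under both limma analyses are given for pseudocounts of 1 and 0.1 in turn. Xbp1 between PC isotypes was -0.23 under total-count scaling, -0.11 under both limma analyses and -0.0905 to 0.22 with 1 library left out. Derl2 between iGC isotypes ran from -0.0416 to 0.0115 with 1 library left out. The interaction of Derl3 was -0.0667 under total-count scaling and -0.0105 to 0.43 with 1 library left out. Against D6, Edem2 in IgE iGC was -0.0423 under total-count scaling, -0.125 and -0.128 with limma, and -0.0231 to 0.0619 with 1 library left out. Edem3 in IgG1 iGC was -0.0193 under total-count scaling, -0.0584 and -0.0632 with limma, and -0.00487 to 0.0688 with 1 library left out. With limma the rises from iGC to PC became -0.108 and -0.109 for Psma5, -0.0908 and -0.0916 for Psmb5 and -0.083 and -0.0841 for Psmc2 in IgE cells, and -0.0228 and -0.023 for Psmb5 and -0.148 and -0.149 for Psmc3 in IgG1 cells.

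The replicate numbers did not pair the libraries: the mean correlation of deviations between same-numbered libraries was -0.0146, with 0 of 30 pairs over 0.1, and a library correlated best with its own number in 11 of 30 cases. With the replicate block the calls were 9005 in place of 9119 for IgE PC versus IgG1 PC, with all 10 ERAD genes called, and 580 in place of 607 for the iGC isotypes.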
